A study of Mus musculus with 4 samples.

Results

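The 10 genes described here act in endothelial activation and in the endothelial barrier: Icam1, Sele and Selp (adhesion), Pecam1 and Cdh5 (junctions), Kdr (VEGF receptor), Tek, Angpt1 and Angpt2 (angiopoietin system) and Nos3 (nitric oxide). They were taken by gene symbol, and all 10 had a row among the 55401 gene rows of the count files. RNA sequencing of poly(A) RNA was available for the kidney and the heart of C57BL/6 mice with sepsis from cecal ligation puncture (CLP), an operation that lets gut bacteria leak into the abdomen. In each organ, 1 library came from a CLP group and 1 from a group that had also received melatonin before CLP (CLP + MLT). No sham or untreated library was analysed here, so that every value below compares septic tissue with septic tissue.

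The study's methods describe male mice aged 8 weeks, with 8 mice in each of the CLP and CLP + MLT groups. Melatonin was dissolved in 0.1% ethanol and given in the drinking water at 25 µg/ml for 14 days before the operation. Kidneys were collected 24 h after CLP. No collection time is stated for the hearts. The sources also do not say if RNA of several mice was pooled, or if the CLP group drank water with ethanol. With 1 library a group there is no replicate error and no test of the treatment. Intervals are 95% exact binomial (Clopper-Pearson) intervals for counting error only, with exceptions. Where reads of a gene per read of another are compared between libraries, the interval is an exact conditional interval for that comparison. Intervals of heart minus kidney differences subtract opposite limits of the organs' intervals, and are wider than 95%. The spread between mice adds to all intervals by an unknown amount.

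Endothelial cells line all blood vessels. At rest they hold together through junction proteins such as VE-cadherin and keep leukocytes out. Inflammatory signals such as tumour necrosis factor and bacterial lipopolysaccharide induce adhesion molecules: selectins slow the leukocyte, and ICAM-1 then holds it through leukocyte integrins. Angiopoietin-1 keeps the barrier tight through the receptor TIE2, which Tek encodes. Angiopoietin-2, stored in endothelial granules with P-selectin, mostly counteracts it and is a well-known blood marker of vascular leak in sepsis.

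The 4 libraries held 22927905 reads on genes in CLP kidney, 16474248 in CLP + MLT kidney, 16623050 in CLP heart and 15883057 in CLP + MLT heart. Mitochondrial genes took 14.8% and 24.2% of these reads in the kidney and 31.6% and 36.0% in the heart (CLP and CLP + MLT). A list of 22 other endothelial genes (Tie1, Emcn, Egfl7 and others) checked that endothelial RNA was present. All 22 had a mean of at least 10 reads in both organs. Their summed level, in CPM (reads scaled to a library of 1000000), was 540 in CLP kidney, 486 in CLP + MLT kidney, 2713 in CLP heart and 2904 in CLP + MLT heart. In whole tissue, fewer cells of a type and less RNA per cell cannot be told apart.

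Levels of different genes were compared per exon length, as RPKM, which is the CPM on the scaling described below divided by the merged exon length in kilobases. In CLP kidney, Icam1 stood highest at 13.3 RPKM, followed by Pecam1 at 8.94, Tek at 7.47 and Cdh5 at 5.95 RPKM. Nos3 was at 3.76 RPKM, Kdr at 2.81, Angpt2 at 2.68 and Angpt1 at 1.253 RPKM. Sele and Selp were at the bottom with 2 and 4 reads. Kdr and Angpt2 were not apart beyond counting error (ratio 1.05, interval 0.902 to 1.22), nor were Selp and Sele. In CLP + MLT kidney the top of the order closed up: Icam1 at 7.43, Tek at 6.63 and Pecam1 at 6.05 RPKM did not differ between neighbours beyond counting error. Angpt2, at 3.34 RPKM, then stood above Nos3 at 2.64 and Kdr at 1.98 RPKM.

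The heart had another order. In CLP heart the barrier gene Cdh5 led with 44.4 RPKM, ahead of Nos3 at 36.7, Pecam1 at 28.9 and Tek at 24.7 RPKM. Icam1 at 12.96 RPKM lay next to Kdr at 11.9 RPKM (ratio 1.08, interval 1.00 to 1.17), and Angpt1 was at 4.43 RPKM. Angpt2 was at 0.615 RPKM, and Selp at 0.250 and Sele at 0.190 RPKM were not apart. In CLP + MLT heart, Cdh5 was at 49.1, Nos3 at 36.5, Tek at 31.8, Pecam1 at 27.2 and Kdr at 22.4 RPKM. Kdr had thus passed Icam1, which was at 11.7 RPKM. Angpt1 followed at 2.14, Angpt2 at 0.904, Sele at 0.297 and Selp at 0.140 RPKM, the last pair again not apart.

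**Figure D1:**
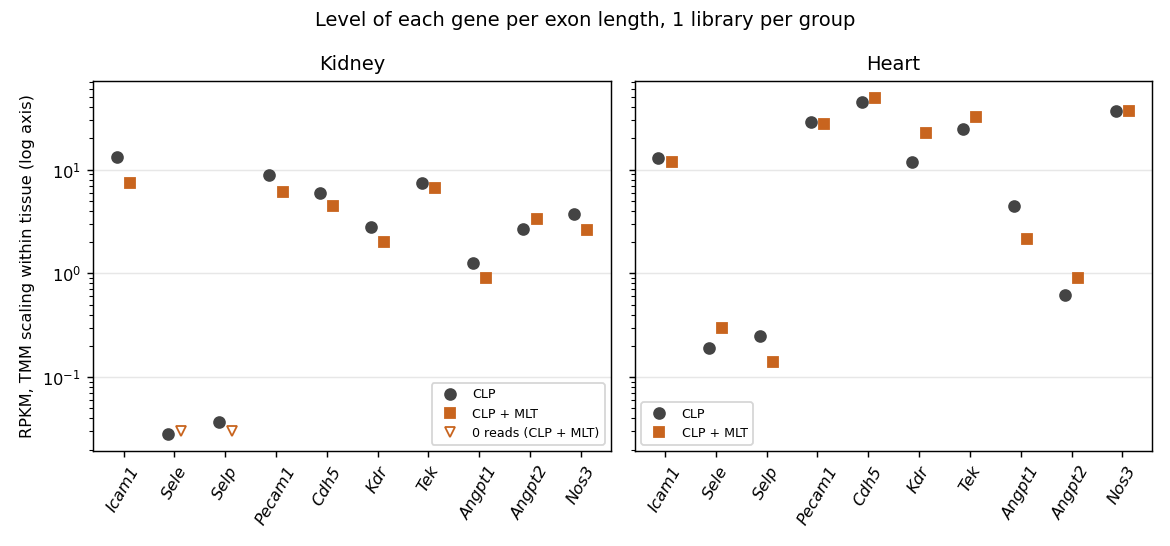
Level of the 10 genes in RPKM (vertical axis, log scale) in kidney (left) and heart (right), with circles for CLP and squares for CLP + MLT, 1 library each; open triangles mark 0 reads. In the kidney 7 genes lie lower in CLP + MLT and Angpt2 higher, while in the heart Kdr goes from 11.9 to 22.4 RPKM and Angpt1 from 4.43 to 2.14 RPKM.

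The comparison of CLP + MLT with CLP describes how these genes differed between septic tissue with and without melatonin, from 1 library each. Counts were scaled within each organ by the trimmed mean of M-values (TMM), and a gene was counted as past the fold at a 1.5-fold difference or more in either direction. Among the 10 genes, 8 had a mean of at least 10 reads in the kidney, and 1 of these, Icam1, was past the fold, on the lower side. The share over all 16932 kidney genes tested was 22.6%, and 11.6% on the lower side, so that 1 of 8 is no excess. What most of the 8 genes shared was the direction: 7 had log2 ratios below 0 and 1 above, under TMM and under each other scaling tried. Their median log2 ratio was -0.49, beside 0.0029 over all genes tested. With library size as the only scaling, which moves the median of all genes to -0.19, 6 of the 8 were lower past the fold (Icam1, Pecam1, Cdh5, Kdr, Angpt1 and Nos3), beside 18.7% lower and 6.79% higher over all genes.

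Icam1 encodes the integrin ligand ICAM-1 of activated endothelium, which epithelial cells and macrophages can also make. It had 1422 reads in CLP kidney and 499 in CLP + MLT kidney, or 58.0 and 32.4 CPM. That is a log2 ratio of -0.84 (interval -0.99 to -0.69), 1.79-fold lower in the CLP + MLT library. The gene (ENSMUSG00000037405.8) spans chr9:21015985-21028817 on the plus strand of mm10. An antisense gene on the opposite strand, Gm47079, shares 511 exon bases with it and had 575 reads in CLP kidney and 280 in CLP + MLT kidney. The strand setting of the counting is not given, and with those reads added the Icam1 log2 ratio was -0.69, still past the fold.

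The sequence just upstream of Icam1 is shown because the gene is a textbook target of NF-kB, the transcription factor that inflammatory signals switch on. It is taken from RefSeq (GRCm38.p6, the same coordinates as mm10), chr9:21015690-21015939, plus strand, 5′ to 3′. It ends at the base before the RefSeq start, chr9:21015940, which lies upstream of the GENCODE start given above, and positions are counted back from the RefSeq start. Capitals mark matches to the NF-kB-like letters GGNNNTTCC or to the GC box GGGCGG on either strand.
Icam1: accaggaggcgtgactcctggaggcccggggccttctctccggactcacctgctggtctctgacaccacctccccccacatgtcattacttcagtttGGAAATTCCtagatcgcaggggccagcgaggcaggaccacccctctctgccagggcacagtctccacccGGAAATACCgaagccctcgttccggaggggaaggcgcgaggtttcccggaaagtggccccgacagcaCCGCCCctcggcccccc
GGAAATTCC lies at positions -153 to -145 and reads the same pattern on both strands, GGAAATACC lies at -84 to -76 on the minus strand, and the GC box match CCGCCC lies at -17 to -12. Of 32851 mouse promoters of this length, 15.7% held GGNNNTTCC and 32.7% held GGGCGG. The marked matches do not overlap each other. TATAAA (12.4% of promoters) and CACGTG (6.02%) did not occur in this window. Such matches are descriptions of letters, not measured binding.

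A list of 14 further NF-kB-inducible genes gave the neighbouring values. In the kidney 12 of them passed the count minimum, and all 12 had log2 ratios below 0 with a median of -0.40. Taken relative to the endothelial identity genes, 11 of 12 were below 0. Over all 16932 kidney genes tested, 8423 lay below 0 on TMM scaling. Past the fold were Cxcl10 (215 and 35 reads, log2 ratio -1.94) and Cxcl1 (337 and 72 reads, log2 ratio -1.55), chemokines for T cells and neutrophils, both lower. Vcam1, the other classical endothelial integrin ligand, had 189 reads in CLP kidney and 107 in CLP + MLT kidney, a log2 ratio of -0.15 (interval -0.50 to 0.20). It is also counted in the list of other adhesion genes below. Within the same libraries, reads of Icam1 per read of Vcam1 went from 7.52 to 4.66, a ratio of 0.620 (interval 0.476 to 0.811). Icam1 was thus lower relative to Vcam1 as well, beyond counting error. In the heart, 11 of the 14 genes passed, none was past the fold, and the median was 0.03.

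The selectins, which capture rolling leukocytes, were near the limit of detection in the kidney. Sele, for E-selectin (ENSMUSG00000026582.6, chr1:164048234-164057677), had 2 reads in CLP and 0 in CLP + MLT. Selp, for P-selectin of endothelium and platelets (ENSMUSG00000026580.16, chr1:164115264-164150026), had 4 and 0. A count of 0 allows up to 3 reads, here 0.195 CPM in CLP + MLT kidney, and 3 reads were 0.122 CPM in CLP kidney. No difference in either selectin was detectable at this depth. Platelet genes were sparse there as well, with 3 of 8 passing the count minimum, a summed level of 15.0 and 17.8 CPM, and Gp1bb, Gp6 and Treml1 at 0 reads in both kidney libraries.

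Both junction genes were lower in CLP + MLT kidney without reaching the fold. Pecam1 encodes PECAM-1 (CD31), an adhesion molecule at endothelial contacts that platelets and leukocytes also carry (ENSMUSG00000020717.19, chr11:106654217-106750628). It had 1366 and 580 reads, 55.7 and 37.7 CPM, a log2 ratio of -0.56 (interval -0.71 to -0.42) that lay just inside the 1.5-fold limit. Cdh5 encodes VE-cadherin, the adherens junction protein specific to endothelium (ENSMUSG00000031871.9, chr8:104101625-104144511). It had 613 and 285 reads, 24.99 and 18.51 CPM, with a log2 ratio of -0.43 (interval -0.64 to -0.23). Reads of Icam1 per read of Pecam1 went from 1.04 to 0.860, a ratio of 0.827 (interval 0.716 to 0.954), and per read of Cdh5 the ratio was 0.755 (interval 0.632 to 0.902). Per exon length Icam1 stayed above both genes, in CLP + MLT kidney at 7.43 RPKM beside 6.05 for Pecam1 and 4.40 for Cdh5. In reads it lay below Pecam1 there (499 and 580), and neighbours at the top of that RPKM order did not differ beyond counting error. The difference of Icam1 between the kidney libraries was larger than those of Pecam1 and Cdh5. With the antisense reads added, the log2 ratio of Icam1 (-0.69) was closer to that of Pecam1 (-0.56).

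Kdr encodes VEGF receptor 2, the main receptor for VEGF-A signals of growth and permeability (ENSMUSG00000062960.10, chr5:75932827-75978458, minus strand). In the kidney it had 623 reads in CLP and 276 in CLP + MLT, 25.4 and 17.9 CPM, a log2 ratio of -0.50 (interval -0.71 to -0.30). Nos3 encodes endothelial nitric oxide synthase, which relaxes vessels and restrains platelets and leukocytes (ENSMUSG00000028978.12, chr5:24364810-24384474). It had 381 and 168 reads, 15.5 and 10.9 CPM, with a log2 ratio of -0.51 (interval -0.78 to -0.24). The proportions of Kdr, Nos3 and Pecam1 to each other were close in the 2 kidney libraries. Reads of Kdr per read of Pecam1 were in a ratio of 1.04 (interval 0.875 to 1.24) between the libraries, and those of Nos3 per read of Pecam1 likewise 1.04 (interval 0.840 to 1.28).

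In the angiopoietin system of the kidney, the receptor and the ligands did not share a direction. Tek (ENSMUSG00000006386.15, chr4:94739289-94874976) had 863 and 481 reads, 35.2 and 31.2 CPM, the smallest difference of the 8 genes, at a log2 ratio of -0.17 (interval -0.34 to -0.0088). Angpt1, the agonist made mainly by mural and stromal cells (ENSMUSG00000022309.9, chr15:42424723-42676977), had 160 and 72 reads, 6.52 and 4.68 CPM, with a log2 ratio of -0.48 (interval -0.90 to -0.07). Angpt2, the context-dependent antagonist (ENSMUSG00000031465.6, chr8:18690263-18741562), had 243 and 190 reads, 9.91 and 12.3 CPM. Its log2 ratio of 0.32 (interval 0.04 to 0.60) made it the single gene of the 8 on the higher side.

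**Figure D2:**
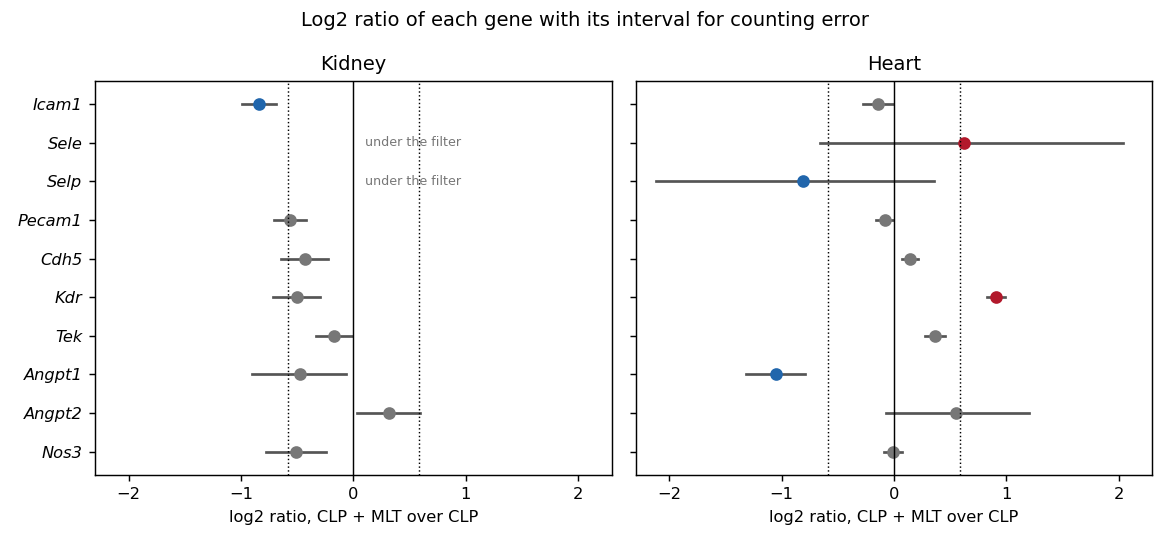
Log2 ratio of CLP + MLT over CLP (horizontal axis) for each gene in kidney (left) and heart (right); bars are 95% intervals for counting error, dotted lines mark 1.5-fold, and coloured points lie past it (blue lower, red higher, grey neither). Icam1 is past the line in the kidney, and Kdr and Angpt1 are past it in the heart with intervals clear of 0, while the wide bars of Sele and Selp in the heart cross 0.

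In the heart all 10 genes passed the count minimum and 4 were past the fold: Kdr and Sele higher, Angpt1 and Selp lower. Over all 15871 heart genes tested the share was 23.5%, with 10.9% higher and 12.6% lower. The intervals of Sele and Selp cross 0, so that 2 of the 4 rest on differences within counting error. Of the 10 log2 ratios 5 were above and 5 below 0, or 6 and 4 with library size only or upper-quartile scaling, under which Nos3 lay above 0. The median was 0.07, beside 0.0023 over all genes tested.

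Kdr was the gene furthest on the higher side in the heart. It had 1759 reads in CLP heart and 3277 in CLP + MLT heart, 108 and 202 CPM, which is 1.88-fold higher at a log2 ratio of 0.91 (interval 0.82 to 0.99). Kdr has a long transcript, and 2113 heart genes of similar exon length (within 1.25-fold) had a median log2 ratio of 0.06. Relative to them Kdr was still 0.84 higher. The sequence upstream of Kdr is shown for comparison with that of Icam1 (RefSeq, GRCm38.p6, chr5:75978459-75978705, read on the minus strand, 5′ to 3′, without the 3 bases nearest the RefSeq start at chr5:75978455, which lie inside the GENCODE gene). Capitals mark GC box matches.
Kdr: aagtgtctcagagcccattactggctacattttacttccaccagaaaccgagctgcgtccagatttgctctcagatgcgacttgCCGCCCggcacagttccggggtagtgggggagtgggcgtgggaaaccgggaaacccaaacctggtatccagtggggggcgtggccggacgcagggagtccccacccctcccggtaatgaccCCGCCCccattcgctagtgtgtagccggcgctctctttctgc
It held 2 GC box matches, CCGCCC at positions -166 to -161 and -45 to -40 counted from that RefSeq start. It held neither the NF-kB-like letters found in the Icam1 window nor TATAAA or CACGTG. Of the 10 genes, 5 had an entry in the promoter table used here: Icam1, Sele, Selp, Kdr and Tek. GGNNNTTCC also matched in Sele (GGATATTCC, -145 to -137) and in Selp (GGAAAGGCC, -14 to -6, minus strand). Sele held TATAAA as well, and Tek held none of these letters. A link between such letters and the log2 ratios was not tested.

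Ratios within a library need no scaling between libraries and show Kdr apart from 4 other endothelial genes in the heart. The pairs were chosen after the values had been seen. Reads of Kdr per read of Flt1, the gene for VEGF receptor 1, were 0.618 in CLP heart and 1.02 in CLP + MLT heart, a ratio of 1.65 (interval 1.52 to 1.78). Against Pecam1 the ratio was 1.99 (interval 1.84 to 2.15), against Cdh5 1.70 (interval 1.57 to 1.83) and against Tek 1.46 (interval 1.34 to 1.59). All 4 pairs lay above 1 in the heart beyond counting error. In the kidney the same ratio was 1.07 against Flt1 (interval 0.885 to 1.28), 0.953 against Cdh5 (interval 0.777 to 1.17) and 0.795 against Tek (interval 0.661 to 0.956). There the interval against Tek alone excluded 1, on the lower side.

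Angpt1 was the gene furthest on the lower side in the heart. It had 376 reads in CLP heart and 180 in CLP + MLT heart, 23.1 and 11.1 CPM, which is 2.07-fold lower at a log2 ratio of -1.05 (interval -1.32 to -0.79). An antisense gene that shares exon bases with it, Gm17473, had 19 and 17 reads in the heart libraries. Angpt2 had 37 and 54 reads, 2.27 and 3.33 CPM, with a log2 ratio of 0.55 (interval -0.08 to 1.20). The receptor gene Tek had 1898 and 2423 reads, 116 and 150 CPM, a log2 ratio of 0.36 (interval 0.27 to 0.45), and reads of Tek per read of Tie1, the related orphan receptor, had a ratio of 1.19 (interval 1.11 to 1.28). In the kidney the Tek to Tie1 ratio was 1.01 (interval 0.849 to 1.19).

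The share of Angpt2 among the ligands was higher in the CLP + MLT library of both organs. Of the reads on Angpt1 and Angpt2 together, Angpt2 took 60.3% (interval 55.3 to 65.1) in CLP kidney and 72.5% (interval 66.7 to 77.8) in CLP + MLT kidney. In the heart, where Angpt1 prevailed, its share was 8.96% (interval 6.39 to 12.1) in CLP and 23.1% (interval 17.8 to 29.0) in CLP + MLT. Expressed as reads of Angpt2 per read of Angpt1, the CLP + MLT library was 1.74-fold above CLP in the kidney (interval 1.23 to 2.47) and 3.04-fold above in the heart (interval 1.89 to 4.94). Mural cells are a source of Angpt1. The 11 mural genes had summed levels of 271 and 246 CPM in the kidney, with 1 lower past the fold, and 1848 and 1159 CPM in the heart. There 1 gene, Des, was lower past the fold and the median was -0.03. Des alone held 15875 and 6144 of the 30127 and 18770 reads of this list in the heart, so the summed level there mostly follows Des. In CLP kidney Des had 442 reads. Its log2 ratio in the heart was -1.36, where the cardiomyocyte list had a median of -0.51. Whether the Des reads came from mural cells was not tested, so the summed heart level is not read as a mural level. Fibroblast genes, for stromal cells, had medians of 0.15 in the kidney and -0.33 in the heart. The part of mural and stromal cells in the Angpt1 values was not tested.

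**Figure D3:**
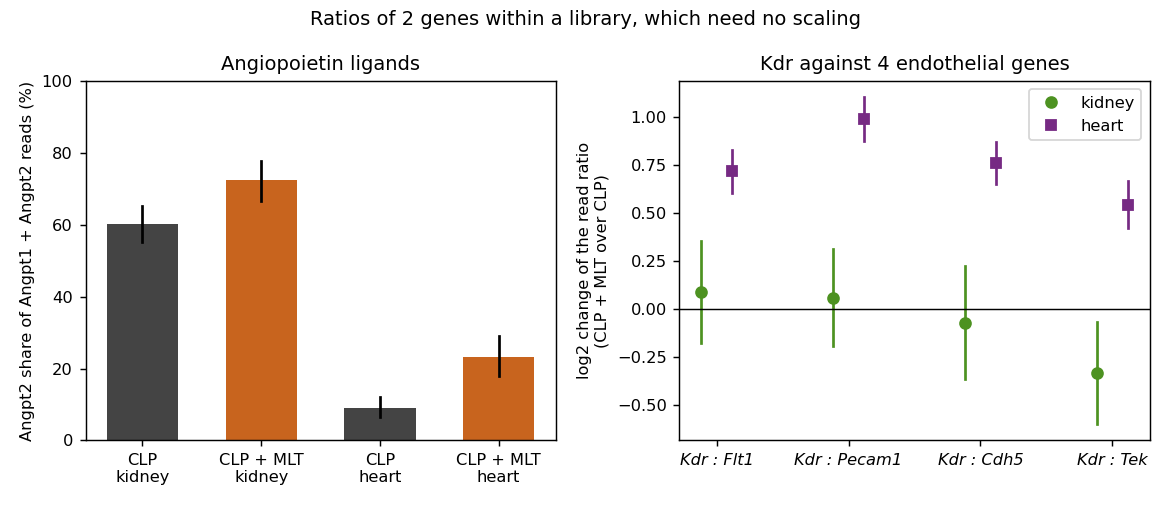
Left, share of Angpt2 among the reads on Angpt1 and Angpt2 (percent, from 0 to 100) in each of the 4 libraries, with 95% intervals for counting error. Right, log2 ratio between CLP + MLT and CLP of the reads of Kdr per read of Flt1, Pecam1, Cdh5 or Tek in kidney (circles) and heart (squares). The Angpt2 share is higher in CLP + MLT in both organs (60.3% to 72.5% and 8.96% to 23.1%), and all 4 heart points of Kdr lie above 0.

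The junction and nitric oxide genes differed little in the heart. Cdh5 had 3043 and 3341 reads, 187 and 206 CPM, a log2 ratio of 0.14 (interval 0.07 to 0.22). Pecam1 had 2931 and 2747 reads, 180 and 170 CPM, a log2 ratio of -0.08 (interval -0.16 to -0.0081). Nos3 had 2474 and 2443 reads, 152 and 151 CPM, and its log2 ratio of -0.0083 had an interval from -0.09 to 0.07. Its antisense partner Gm15587, which shares 1040 exon bases with Nos3, had 1012 and 1041 reads. Reads in the shared bases cannot be told apart where strand was not used, and how they were counted is not stated.

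The adhesion genes of the heart showed no difference past both the fold and counting error. Icam1 had 921 and 828 reads, 56.5 and 51.1 CPM, a log2 ratio of -0.14 (interval -0.28 to -0.0067). Sele had 9 and 14 reads, 0.551 and 0.865 CPM, with a log2 ratio of 0.62 (interval -0.66 to 2.04). Selp had 18 and 10 reads, 1.10 and 0.618 CPM, with a log2 ratio of -0.81 (interval -2.12 to 0.35). With the 4 and 0 reads of Gm16587 and the 2 and 6 reads of Gm16548 on the opposite strand added, Selp was no longer past the fold. The platelet genes, of which 5 of 8 passed in the heart, had a summed level of 23.4 CPM in CLP and 25.3 CPM in CLP + MLT.

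Side by side, most of the genes had a higher ratio in the heart than in the kidney. The heart log2 ratio minus the kidney one was 1.41 for Kdr (interval 1.12 to 1.70), 0.69 for Icam1 (interval 0.41 to 0.98), 0.58 for Cdh5 (interval 0.30 to 0.86) and 0.53 for Tek (interval 0.28 to 0.78). It was 0.50 for Nos3 (interval 0.15 to 0.85) and 0.48 for Pecam1 (interval 0.26 to 0.70). The intervals of Angpt2 (0.23, interval -0.67 to 1.16) and Angpt1 (-0.57, interval -1.25 to 0.11) included 0. As these intervals are wider than 95%, they do not decide whether Angpt1 or Angpt2 differed between the organs beyond counting error. Kdr, Cdh5 and Tek lay below 0 in the kidney and above 0 in the heart. These differences carry counting error only, and whether they exceed the spread between mice was not tested. The 22 endothelial identity genes had a median log2 ratio of -0.16 in the kidney (5 above and 17 below 0, 1 higher and 1 lower past the fold) and 0.13 in the heart (15 above and 7 below 0, 1 lower past the fold). Taken relative to those medians, the difference between organs was 1.12 for Kdr, 0.41 for Icam1, 0.29 for Cdh5, 0.24 for Tek, 0.21 for Nos3 and 0.19 for Pecam1, while that of Angpt2 was -0.06 and that of Angpt1 -0.86.

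Levels also differed between the organs, on TMM scaling over the 4 libraries. Nos3 was 12.03-fold higher in heart than in kidney among CLP libraries (interval 10.8 to 13.5) and 17.6-fold among CLP + MLT libraries. Cdh5 was 9.21-fold and 14.2-fold higher in heart, and Kdr 5.24-fold and 14.4-fold. Tek, Pecam1 and Angpt1 lay between 3.02-fold and 6.11-fold higher. Icam1 was the most even gene, at 1.20-fold (interval 1.11 to 1.31) and 2.01-fold. Angpt2 ran the other way and was 3.51-fold higher in kidney among CLP libraries and 2.88-fold among CLP + MLT libraries. Sele and Selp had 9 to 18 reads in the heart libraries and 0 to 4 in the kidney libraries.

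Other genes of the same pathways were read from lists, with counts on TMM scaling. Library size alone gave more lower calls in the kidney, among all genes as well, where the lower share was 18.7% in place of 11.6%. Lower under it were 7 of the 12 NF-kB-inducible genes, 4 of the 22 endothelial identity genes and 3 of the 21 junction genes. Among 14 other adhesion genes, 11 passed in the kidney, 3 were lower past the fold and the median was -0.15. These were Jam2 (423 and 120 reads, log2 ratio -1.14) and Jam3 (404 and 156 reads, -0.70), junctional adhesion molecules, and Podxl (5429 and 2213 reads, -0.62), a sialomucin shared with podocytes. In the heart 11 passed, 1 was lower and the median was -0.02. Of 21 junction and barrier genes, none was past the fold in the kidney, where all 21 passed (median -0.02). In the heart 20 passed, with a median of 0.15. There 1 was higher, Ctnnb1 for beta-catenin (1744 and 2646 reads, 0.61), and 3 were lower, among them Cldn5 for the tight junction protein claudin-5 (810 and 478 reads, -0.75) and Gja4 for connexin 37 (231 and 152 reads, -0.59). Cdh5 and Cldn5, both junction proteins of endothelium, thus had opposite signs in the heart on TMM scaling. The Cdh5 log2 ratio there was small, at 0.14, and was 0.02 relative to the endothelial identity genes.

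Of 9 other angiopoietin and TIE genes, all passed in the kidney with 1 higher, 1 lower and a median of 0.07, and 8 passed in the heart with 2 higher, 1 lower and a median of 0.17. Dok2, for an adaptor that binds TIE2 and is abundant in leukocytes, was higher in both, with 71 and 152 reads in the kidney (log2 ratio 1.76) and 75 and 154 in the heart (1.04). Angptl4, a fasting- and hypoxia-responsive relative of the angiopoietins, was lower in the heart (1594 and 798 reads, -0.99). In the VEGF family, 10 of 11 genes passed in each organ. The kidney had 1 higher and 1 lower, Flt1 (1039 and 432 reads, -0.59), with a median of -0.13. The heart had 4 higher and 1 lower with a median of 0.33. Higher there were Shb, for an adaptor of VEGF receptor 2 (81 and 163 reads, 1.01), and Nrp2, for a VEGF co-receptor (166 and 303 reads, 0.88). Pgf, for placental growth factor, a ligand of VEGF receptor 1, was lower (636 and 310 reads, -1.03).

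Of 17 genes of nitric oxide metabolism, 15 passed in the kidney, 4 were lower past the fold and the median was -0.09. Arg2, for an arginase that uses the same substrate as Nos3, had 1789 and 391 reads (log2 ratio -1.52), and Nostrin, for a protein that moves Nos3 away from the membrane, had 163 and 65 (-0.65). The other 2 had fewer reads. In the heart 14 passed, with 2 higher, 2 lower and a median of -0.07, and Nostrin was again lower (242 and 143 reads, -0.75), as was Spr, for an enzyme that makes the cofactor of nitric oxide synthases (535 and 272 reads, -0.96). All 16 endothelial regulators passed in both organs. In the kidney 3 were higher with a median of -0.0034, among them the transcription factor genes Sox17 (331 and 339 reads, 0.71) and Gata2 (677 and 643 reads, 0.60), and in the heart none was past the fold (median 0.21). Of 14 glycocalyx genes, 10 passed in the kidney with 1 lower, the hyaluronidase gene Hyal1 (200 and 73 reads, -0.78), and a median of -0.12. In the heart 13 passed with 2 higher and 2 lower and a median of 0.10, and Adamts1, for a proteoglycan-cleaving protease, was among the higher (486 and 789 reads, 0.71).

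**Figure D4:**
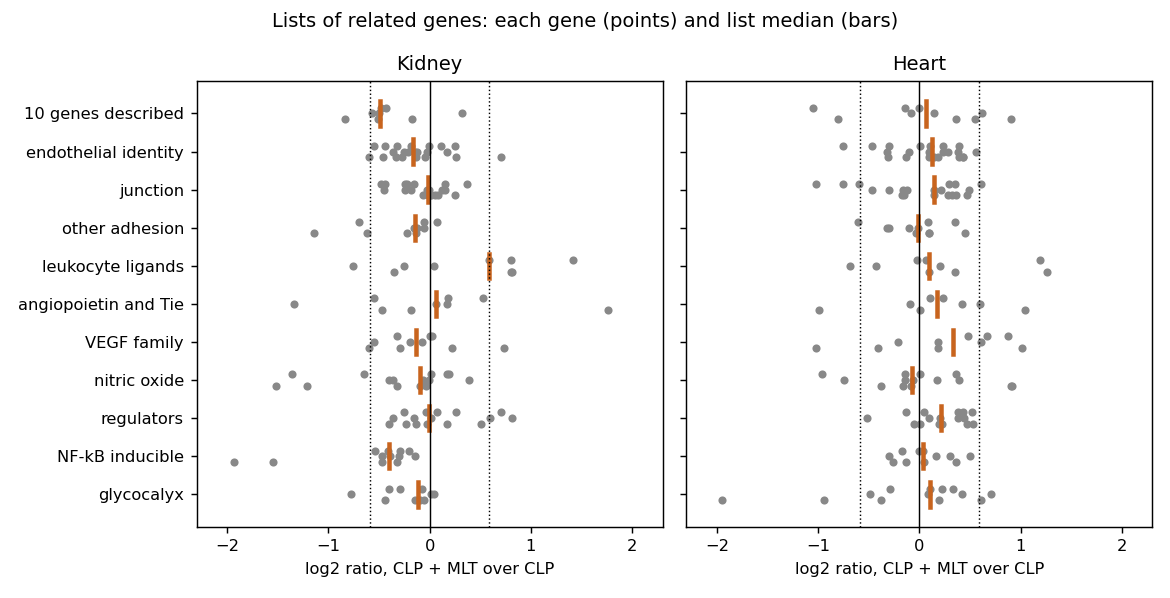
Log2 ratio of CLP + MLT over CLP (horizontal axis) of each gene that passed the count minimum (points) and the median of its list (bars), in kidney (left) and heart (right), with dotted lines at 1.5-fold. On TMM scaling the NF-kB-inducible list lies wholly below 0 in the kidney (median -0.40, with 11 of 12 below 0 relative to the endothelial identity genes), and the 10 genes described have medians of -0.49 in the kidney and 0.07 in the heart.

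Leukocytes bear the ligands of the adhesion genes and contribute RNA of their own. Of 10 leukocyte ligand genes, 9 passed in the kidney, with 5 higher and 1 lower past the fold and a median of 0.59. Among them the integrin gene Itgam, whose product binds ICAM-1, had 192 and 210 reads (log2 ratio 0.80), while Glg1, for an E-selectin ligand, was lower (1336 and 496 reads, -0.76). In the heart 9 passed with 2 higher, 1 lower and a median of 0.09. The macrophage list had a summed level of 187 CPM in CLP kidney and 292 CPM in CLP + MLT kidney (10 of 11 passed, 3 higher, 0 lower), and 331 and 365 CPM in the heart (11 passed, 2 higher, 4 lower). Most of the kidney difference lay in 2 genes, Lyz2 (552 and 1219 reads, log2 ratio 1.81) and Csf1r (1140 and 1569 reads, 1.13). The complement genes C1qa and C1qc were both at 0.09, and Cd68 (-0.49) and Mertk (-0.44) lay below 0. With library size only the list had 5 genes above and 5 below 0. The neutrophil list went the other way, with 24.1 and 16.7 CPM in the kidney (7 of 10 passed, 1 higher, 4 lower) and 55.3 and 39.2 CPM in the heart (6 passed, 3 lower), and its defining gene Ly6g had 0 reads in all 4 libraries. Lymphocyte genes summed to 19 and 33 reads in the kidney and 29 and 28 in the heart. The part of these cells in the Icam1 values of the kidney was not tested.

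Lists of other cell types also differed between the libraries. In the kidney the 7 podocyte genes had summed levels of 493 and 379 CPM (2 lower, median -0.29) and the 12 tubule genes 9008 and 9854 CPM (3 higher, 2 lower, median 0.06). In the heart the cardiomyocyte list summed to 35744 and 23257 CPM (11 of 12 passed, 5 lower, median -0.51), and the tubule genes found there to 154 and 264 CPM (7 higher, median 0.90). Fibroblast genes had a median of 0.15 in the kidney (7 of 8 passed, 1 lower) and -0.33 in the heart (8 passed, 1 lower). Lymphatic endothelial genes had medians of -0.25 (4 of 7 passed) and -0.01 (6 passed), erythroid genes 0.38 (5 passed) and -0.04 (5 passed), and cardiomyocyte genes in the kidney 21.5 and 28.8 CPM. The part of these shifts in the heart values was not tested. The same holds for the ratios of Kdr to Flt1, Pecam1, Cdh5 and Tek above, which remove the scaling between libraries only.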

How the data were processed

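Total RNA was extracted by the authors with Trizol and made into poly(A) libraries. Reads were trimmed with Trim Galore and aligned to mm10 with HISAT2 (version 2.1.0), and the authors deposited whole-number read counts per Ensembl gene, listed with HTSeq in the submitters' processing notes. Neither the annotation and strand setting of the counting nor the dispersion of the study's own edgeR analysis is stated. The melatonin libraries carry MLT4 in their titles, and the 4 is not explained there.

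Gene identifiers were matched to GENCODE M21 (mm10), which named 55141 of the 55401 gene rows. The 5 totals per file that name no gene stayed out of library sizes. Reads outside annotated genes were 52.1 to 52.6% of those placed on a gene or on none. TMM factors (edgeR 4.0.16, R 4.3.3) were computed within each organ on genes with a mean of at least 10 reads, the count minimum used throughout. Log2 ratios used a prior count of 0.5, and intervals came from scipy 1.17.1. No test of the treatment was possible, since 1 library per group leaves no replicate spread. The p-values used in some alternatives (exact binomial, and the edgeR exact test with an assumed variation) compare the libraries, not the conditions. The 1.5-fold limit is that of the study's methods. The procedure was tested on simulated data. PCR reads without molecular identifiers are not independent molecules, so intervals and limits cover counting error only.

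The 10 genes and all 21 lists were chosen with earlier results of these data known. All 10 genes were named, and from each of the 9 other-pathway lists up to 3 genes per organ with the largest log2 ratio among those past the fold with a mean of at least 100 reads. Of the adhesion list, Cd99 was not matched. In all, 14 alternatives were tried, 2 of them chosen after seeing the data.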

Additional observations from a re-analysis of the deposited data

Results flagged for a closer look

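For 3 of the 10 genes the log2 ratios of the kidney and the heart had opposite signs, each with an interval off 0 in both organs. Over all genes tested, 8509 lay above 0 and 8423 below in the kidney, and 7964 and 7907 in the heart. The share of all genes with opposite signs and both intervals off 0 is not given here, so 3 of 10 is not read as an excess. Kdr was lower in kidney (log2 ratio -0.50) and higher in heart (0.91), a difference of 1.41. Cdh5, at -0.43 and 0.14, differed by 0.58. Tek, at -0.17 and 0.36, differed by 0.53. With 1 library per group and organ these differences were not tested, and the intervals cover counting error only. For Cdh5 and Tek the opposite directions rest on the scaling: relative to the endothelial identity genes the log2 ratio of Tek in the kidney was -0.0086 and that of Cdh5 in the heart 0.02, while Kdr in the heart was at 0.78. Groups of 1 library allow no search for samples that stand apart.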

How the results depend on the processing

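No paired analysis was possible because each organ and treatment has 1 library. The 4 in both melatonin titles is not explained, and whether the kidney and heart libraries came from the same mice is not stated. Leaving out a library was likewise not possible. The number of the 10 genes past the fold in the kidney, 1 as reported, was 6 with library size only (Icam1, Pecam1, Cdh5, Kdr, Angpt1 and Nos3, all lower), a scaling that also moved the median of all kidney genes to -0.19 and the share lower past the fold from 11.6% to 18.7%. It was 3 with no count minimum, which adds Sele and Selp, beside 41.7% of all kidney genes with reads. It was 0 at a 2-fold limit (9.03% of all kidney genes), and 0 with the edgeR exact test at p of at most 0.01 and an assumed variation between mice of 0.2 (3.66%) or 0.4 (0.532%). In the heart the number, 4 as reported, was 5 with library size only or upper-quartile scaling (Angpt2 added), and 3 when centred on the endothelial identity genes or with a prior count of 5 (without Sele) or with antisense reads added (without Selp). It was 2 with a mean of at least 50 reads and 2 with an exact binomial p of at most 0.01 (Kdr and Angpt1 in both). It was 1 at a 2-fold limit (Angpt1) and 0 with an assumed variation of 0.2 or 0.4. Over all heart genes the share was 15.4% with a mean of at least 50 reads, 15.9% with the binomial p and 9.82% at a 2-fold limit. Centring on the endothelial identity genes moved the share of all genes past the fold to 17.3% higher and 8.16% lower in the kidney and to 8.29% higher and 16.7% lower in the heart, while Icam1 in the kidney and Kdr and Angpt1 in the heart stayed past it. Under it, the difference between organs was 0.41 for Icam1, 0.19 for Pecam1, 0.29 for Cdh5, 0.24 for Tek and 0.21 for Nos3, that of Angpt2 was -0.06, and with library size only that of Pecam1 was 0.73. With library size only, the kidney lists had more genes lower past the fold: 7 of 12 NF-kB-inducible genes in place of 2, 4 of 22 endothelial identity genes in place of 1, 3 of 21 junction genes in place of 0, 3 of 10 glycocalyx genes in place of 1 and 3 of 9 angiopoietin and TIE genes in place of 1. Endothelial regulators past the fold were 1 higher and 1 lower in place of 3 higher. No log2 ratio of the 10 genes past the fold changed sign under any alternative run.

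Depth limits Sele and Selp in both organs and Angpt2 in the heart. The spread between mice is unknown, so no difference above is shown to be an effect of melatonin.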
